A study of Homo sapiens with 42 samples.

Results

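The genes described here are the SPNS transporters *SPNS1*, *SPNS2* and *SPNS3* together with 6 genes that receive, make or break down sphingosine 1-phosphate (S1P): *S1PR1*, *S1PR4*, *SPHK1*, *SPHK2*, *SGPL1* and *SGPP1*. They were chosen by function, after the fall of *SPNS3* in cells given all-trans retinoic acid (ATRA) against untreated cells had been seen, and that comparison is therefore given as a description with no test. Of the 9 genes, 8 were measured by a probe set of their own, among 18417 genes with such a probe set. *SPHK2* was not analysed here. Each of the 8 had 1 probe set.

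The cells were HL-60, a long-established human acute myeloid leukemia line with amplified *MYC*. Their RNA was hybridised to 42 arrays (Affymetrix Human Gene 1.0 ST) in 14 groups of 3, described in the study as biological triplicates. In the inhibitor experiment (18 arrays) cells were left untreated or were treated for 3 days with 10 µM GSK343, an inhibitor of the H3K27 methyltransferase EZH2, or with 2.5 µM HKMTI-1-005, an inhibitor of both EZH2 and the H3K9 methyltransferases EHMT2 and EHMT1, each without or with 0.1 µM ATRA. In the knockdown experiment (24 arrays) WT cells were compared with cells carrying a non-targeting hairpin (Scr) or 1 of 2 hairpins against *EZH2* (shEZH2#1 and shEZH2#2), again without or with 0.1 µM ATRA. The hairpins came from a lentiviral vector under puromycin selection, so that Scr differed from WT by virus and selection as well as by its hairpin. The 0.1 µM dose of ATRA was described as sub-optimal for differentiation.

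S1P is a lipid signal made from sphingosine by the kinases SPHK1 and SPHK2. SGPP1 removes its phosphate and SGPL1 cleaves it irreversibly. Cells export it through SPNS2, and it acts on a family of G protein-coupled receptors, of which S1PR1 directs lymphocytes out of lymphoid organs and S1PR4 is found mainly on hematopoietic cells. SPNS1 is a lysosomal transporter of lysophospholipids, and SPNS3 is the least studied of the family. ATRA binds the retinoic acid receptor RARα and drives HL-60 cells towards granulocytes.

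Levels are log2 expression values, so that a difference of 1 is a doubling. Differences between groups were tested with limma in 1 fit to all 42 arrays, with Benjamini-Hochberg adjustment over all 18417 genes. A gene was called when its adjusted p was 0.05 or less, its fold at least 1.3 and its mean level in the top 40% of genes (7367 genes). By mean level *SPNS1*, *SGPL1*, *SPNS3*, *SPNS2* and *SGPP1* lay in that top 40%, whereas *S1PR4* (mean 6.74), *S1PR1* (4.77) and *SPHK1* (4.42) lay below its lowest mean of 6.88 and could not be called. *SPNS3* and *SPNS2* passed through the groups without ATRA, since all their group means with ATRA lay below 6.88. The shares of all genes given as background below are for calls. No such share was computed for unadjusted p-values or for groups whose arrays did not overlap.

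The promyelocytic markers MPO, PRTN3, CTSG, ELANE and AZU1 had mean levels of 6.99 to 12.9, and markers of T, B, erythroid and fibroblast cells 4.21 to 5.46. The retinoid-responsive genes *DHRS3* (6.60 without and 10.6 with ATRA), *CD38* (7.91 and 10.8) and *ITGAM* (6.38 and 7.58) had higher mean levels over the 21 arrays with ATRA than over the 21 without. *EZH2*, the target of the hairpins, fell by 1.08 in knockdown against Scr cells (SE 0.134, adjusted p = 1.72e-05, limma) and by 0.74 against WT cells (adjusted p = 0.00475). The 6 arrays of highest median in the knockdown experiment (5.47 to 5.56) are called arrays of high median. They were Scr replicates 1 and 2, Scr+ATRA replicate 3, WT+ATRA replicate 3, shEZH2#1 replicate 1 and shEZH2#2 replicate 2. No clear gap set them apart, since shEZH2#2+ATRA replicate 2 was at 5.44 and untreated replicate 3 of the inhibitor experiment at 5.46. Results that changed without these 6 arrays are given both ways. Without them Scr without ATRA had 1 array, replicate 3, so that only effect sizes are given for its comparisons.

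*SPNS3* was high in every culture without ATRA and low in every culture with it. Its lowest level among the 21 arrays without ATRA was 8.21, its median 8.85 and its highest 9.45. Among the 21 arrays with ATRA the lowest was 5.19, the median 5.90 and the highest 6.86, so that the arrays fell into 2 ranges that did not meet.

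In the inhibitor experiment *SPNS3* read 8.90, 8.93 and 8.80 in untreated cells and 5.63, 5.56 and 5.66 in ATRA-treated cells. This difference of −3.26, a 9.59-fold lower level, is the value on which the genes were selected and carries no test. With GSK343 the levels were 9.28, 9.45 and 9.09 without ATRA and 5.90, 6.00 and 6.00 with it. HKMTI-1-005 cells read 8.45, 8.79 and 8.46 without and 5.90, 5.86 and 6.31 with ATRA. All 3 pairs of groups were separated by more than 2 log2 units between their nearest arrays.

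The knockdown experiment gave the same separation in cultures that the selection had not used. WT cells read 8.21, 8.72 and 9.01 without ATRA and 5.27, 5.58 and 6.05 with it. In Scr cells *SPNS3* was at 9.33, 9.39 and 9.34 without and at 6.84, 6.86 and 6.35 with ATRA, the highest group on each side. With shEZH2#1 the levels were 8.33, 8.72 and 8.85 against 5.55, 5.19 and 5.99. With shEZH2#2 they were 8.79, 8.62 and 9.12 against 5.78, 5.26 and 6.16. The spread within the WT and both shEZH2 groups was wider than in the inhibitor experiment, and none of these pairs overlapped.

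**Figure D1:**
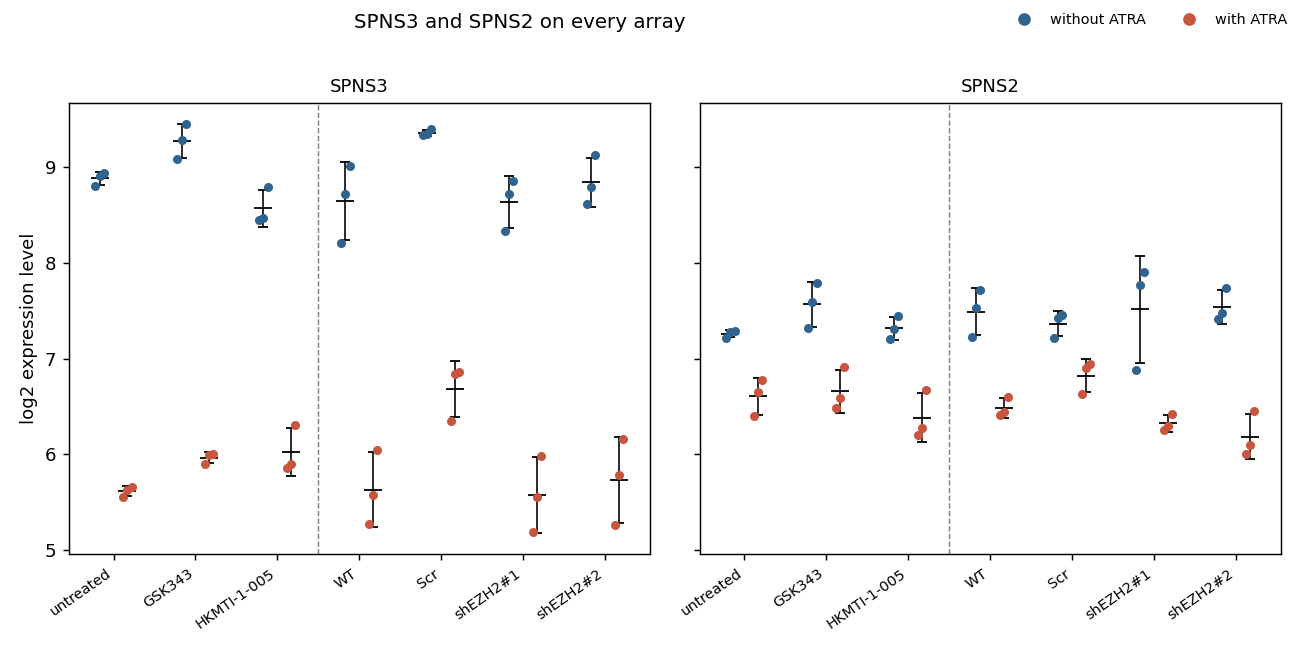
Log2 expression level of *SPNS3* (left) and *SPNS2* (right) on all 42 arrays, with the groups without ATRA (blue) beside those with ATRA (red); points are arrays, black marks the mean ± SD of 3, and the dashed line parts the inhibitor from the knockdown experiment. The red *SPNS3* points stay at or below 6.86 and the blue ones at or above 8.21, whereas for *SPNS2* the 2 sets overlap between 6.88 and 6.95.

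Over the 4 pairs of the knockdown experiment ATRA lowered *SPNS3* by 7.79-fold (log2 difference −2.96, SE 0.107, n = 12 against 12, adjusted p = 5.79e-20, limma). In bulk RNA, fewer cells with the transcript and less transcript per cell cannot be told apart. The difference by pair was −3.01 in WT cells (adjusted p = 2.46e-11), −2.67 in Scr cells (adjusted p = 3.67e-10), −3.05 with shEZH2#1 (adjusted p = 8.54e-12) and −3.11 with shEZH2#2 (adjusted p = 8.07e-12), all by limma with n = 3 against 3 and an SE of 0.214. In the presence of GSK343 it was −3.30 (adjusted p = 2.94e-12) and in the presence of HKMTI-1-005 −2.54 (adjusted p = 6.70e-10). Across the 7 pairs the lower level with ATRA was thus between 5.83-fold and 9.87-fold. Only 20 of the 18417 genes had a wider range of group means than the 3.78 log2 units of *SPNS3*, a range that includes the selected comparison.

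*SPNS2*, the S1P exporter, was also lower with ATRA, by a smaller amount. Untreated cells read 7.27, 7.28 and 7.22 and ATRA-treated cells 6.65, 6.78 and 6.40, a difference of −0.65 that is given without a test. GSK343 cells read 7.32, 7.59 and 7.79 without and 6.48, 6.59 and 6.91 with ATRA. For HKMTI-1-005 the levels were 7.44, 7.31 and 7.20 against 6.67, 6.20 and 6.27. The groups of each pair stayed apart.

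In the knockdown experiment *SPNS2* was at 7.23, 7.52 and 7.72 in WT cells and at 6.41, 6.44 and 6.60 in WT cells with ATRA. Scr cells had the narrowest gap, with 7.22, 7.43 and 7.45 against 6.90, 6.95 and 6.63. With shEZH2#1 it read 6.88, 7.76 and 7.90 without and 6.42, 6.25 and 6.29 with ATRA. With shEZH2#2 it read 7.74, 7.47 and 7.41 without and 6.45, 6.01 and 6.10 with ATRA. Each pair was separated, although the lowest array without ATRA, shEZH2#1 replicate 1, lay below the highest arrays of Scr with ATRA.

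ATRA lowered *SPNS2* by 2.03-fold in the knockdown experiment as a whole (log2 difference −1.02, SE 0.0904, adjusted p = 2.39e-10, limma). It fell by 1.01 in WT cells (adjusted p = 0.00109), by 1.19 with shEZH2#1 (adjusted p = 3.19e-05) and fell by 1.36 with shEZH2#2 (adjusted p = 4.45e-06). Among the inhibitor groups the difference was −0.91 with GSK343 (adjusted p = 0.0015) and −0.93 with HKMTI-1-005 (adjusted p = 0.00136). In Scr cells the difference was −0.54 and was not called (SE 0.181, adjusted p = 0.11, limma), but it was called with the array median as a covariate (−0.64, adjusted p = 0.0336).

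*SPNS1*, the lysosomal member, was not called in any ATRA comparison. Its levels ran from 7.84 to 8.67 without and from 7.86 to 9.14 with ATRA, and its difference over the knockdown experiment was 0.13 with a 95% interval of −0.07 to 0.34 (adjusted p = 0.448, limma). It was higher with ATRA in 6 of 7 pairs, by at most 0.27. The 3 members of the SPNS family thus gave 2 calls, both lower, in WT, shEZH2#1, shEZH2#2, GSK343 and HKMTI-1-005 cells, and 1 in Scr cells.

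No enzyme or receptor of S1P among the members was called with ATRA. *SGPL1*, the S1P lyase, differed by −0.05 over the knockdown experiment (95% interval −0.29 to 0.18, adjusted p = 0.858, limma). *SGPP1*, the S1P phosphatase, differed by 0.05 (−0.13 to 0.22, adjusted p = 0.822). *S1PR4* differed by −0.11 (−0.26 to 0.04, adjusted p = 0.411), *S1PR1* by 0.0022 (−0.06 to 0.07, adjusted p = 0.981) and the kinase *SPHK1* by 0.06 (−0.04 to 0.16, adjusted p = 0.535). These intervals leave out a halving or a doubling of the level, and the last 3 genes lay below the expression filter.

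**Figure D2:**
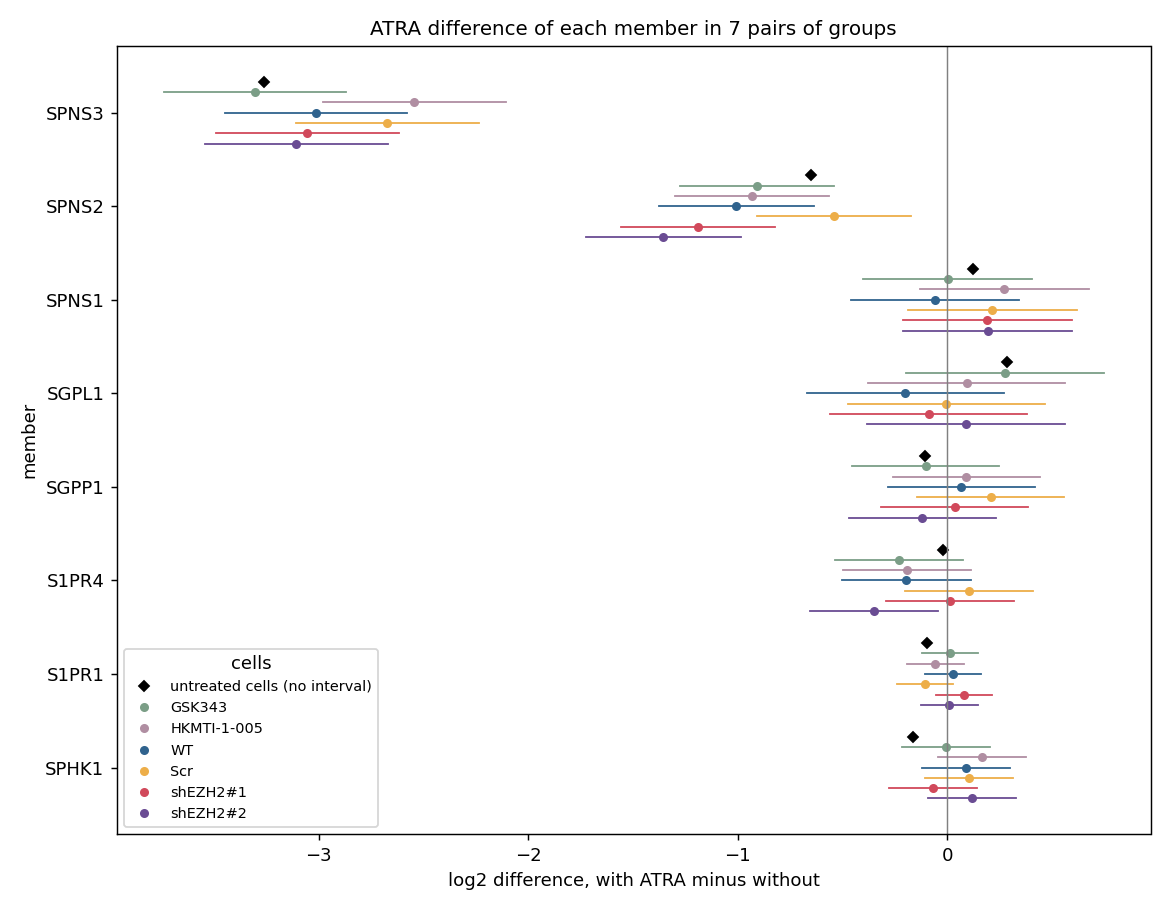
Log2 difference between cells with and without ATRA for the 8 measured members (vertical axis) in 7 pairs of groups (colours), with 95% intervals of the limma fit as lines; the pair of untreated cells (black diamonds), on which the genes were selected, has no interval. *SPNS3* lies between −3.30 and −2.54 and *SPNS2* between −1.36 and −0.54, whereas every other point lies between −0.35 and 0.28.

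The share of all 7367 genes that were called lower with ATRA was 4.03% over the knockdown experiment, 0.801% in WT, 1.21% in Scr, 3.75% in shEZH2#1 and 3.92% in shEZH2#2 cells. It was 7.06% with GSK343 and 1.67% with HKMTI-1-005. Of the 5 members that could be called, 2 were lower in each of these comparisons except Scr, where 1 was, and none was higher. The genes called, *SPNS3* and *SPNS2*, passed the expression filter only through the groups without ATRA, where they were high. Their highest group means with ATRA were 6.68 and 6.82, both in Scr+ATRA and below the cutoff of 6.88. The count is therefore a description of these genes. The median difference over the 8 members in the knockdown experiment was −0.02, beside −0.01 over all genes.

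The levels of *SPNS3* ordered the 14 groups as Scr, GSK343, untreated, shEZH2#2, WT, shEZH2#1, HKMTI-1-005, Scr+ATRA, HKMTI-1-005+ATRA, GSK343+ATRA, shEZH2#2+ATRA, WT+ATRA, ATRA and shEZH2#1+ATRA, from a mean of 9.35 to one of 5.58. Neighbours in this order did not overlap in 3 places: between GSK343 and untreated cells, between HKMTI-1-005 and Scr+ATRA, and between Scr+ATRA and HKMTI-1-005+ATRA. For *SPNS2* the order ran from GSK343 (mean 7.57) through shEZH2#2, shEZH2#1, WT, Scr, HKMTI-1-005 and untreated cells (7.26) to Scr+ATRA (6.82), and then through GSK343+ATRA, ATRA, WT+ATRA, HKMTI-1-005+ATRA and shEZH2#1+ATRA to shEZH2#2+ATRA (6.19). There only untreated cells and Scr+ATRA had ranges that did not overlap. Both genes therefore placed all 7 groups without ATRA above all 7 with it. For the other 6 members every neighbouring pair of groups overlapped, and their group means spanned 0.11 log2 units for *S1PR1*, 0.23 for *SPHK1*, 0.43 for *S1PR4* and about 0.63 each for *SPNS1*, *SGPL1* and *SGPP1*.

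**Figure D3:**
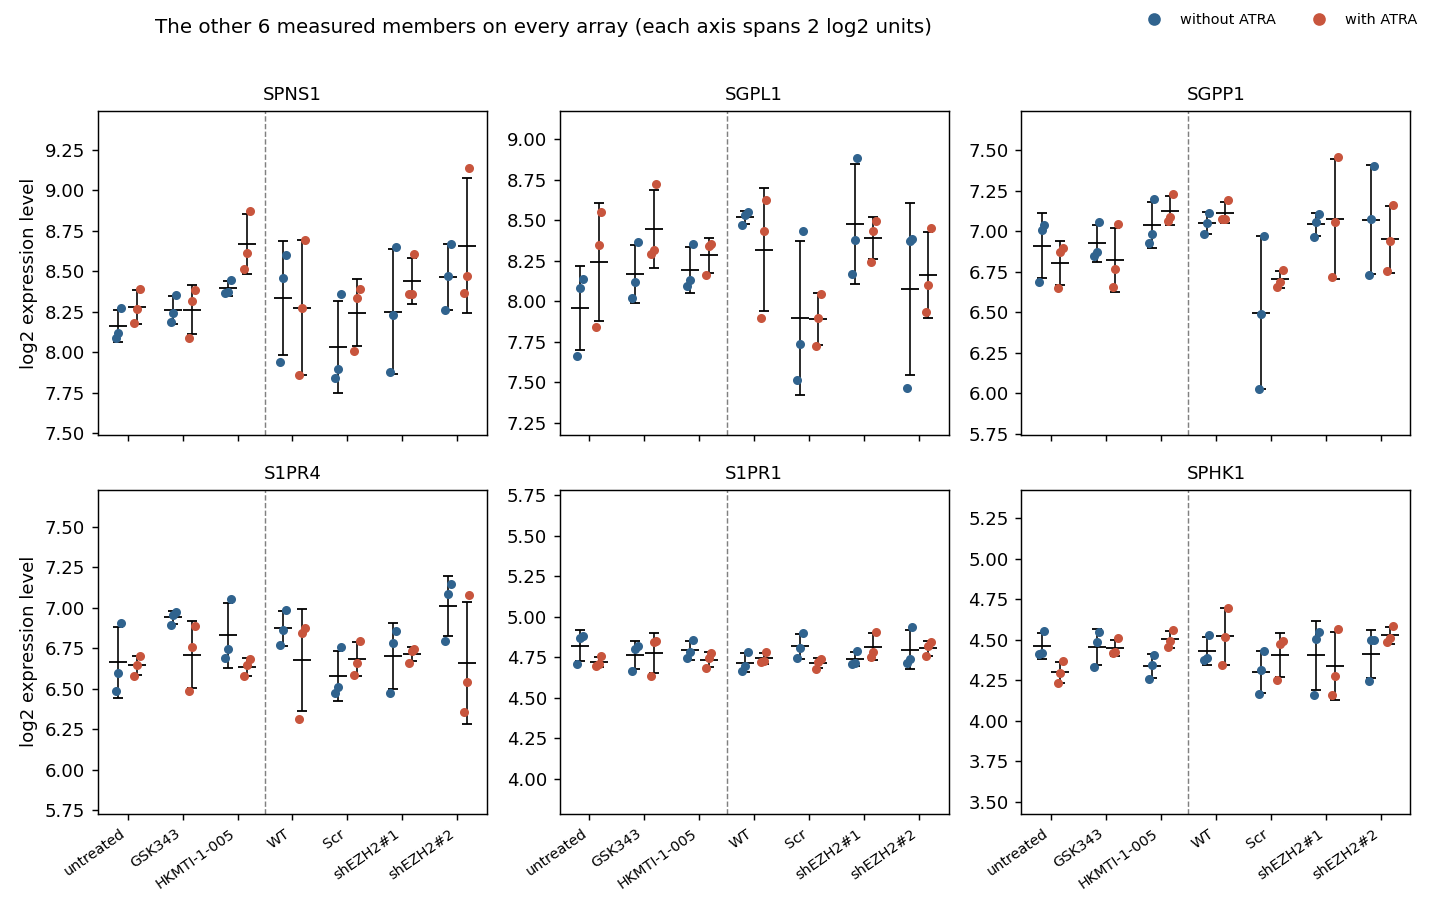
Log2 expression level of *SPNS1*, *SGPL1*, *SGPP1*, *S1PR4*, *S1PR1* and *SPHK1* on all 42 arrays, without (blue) and with ATRA (red), with the mean ± SD of 3 in black; each axis spans 2 log2 units. Red and blue points overlap for every gene over the series, and the lowest *SGPP1* value, 6.03, belongs to Scr replicate 2.

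Neither inhibitor gave a call for any member without ATRA. *SPNS3* was at a mean of 9.27 ± 0.181 (SD, n = 3) with GSK343 against 8.88 ± 0.0678 in untreated cells, a difference of 0.39 (95% interval −0.04 to 0.83, adjusted p = 1.00, limma). With HKMTI-1-005 it was at 8.57 ± 0.193, a difference of −0.31 (−0.75 to 0.12, adjusted p = 1.00). Both inhibitors share the untreated arrays. These arrays had also served to select *SPNS3*, so that its differences from untreated cells are not independent of that selection. The 3 arrays of GSK343 lay above and those of HKMTI-1-005 below all untreated arrays. Smaller differences were separated too: *SPNS1* (0.23) and *SPHK1* (−0.12) did not overlap between HKMTI-1-005 and untreated cells, whereas the remaining members did. *SPNS2* differed by 0.31 with GSK343 (−0.06 to 0.68) and by 0.06 with HKMTI-1-005 (−0.31 to 0.43). No member had an unadjusted p under 0.05 in either comparison, in which 0.0136% and 0.217% of the 7367 genes were called, although the methods' t-test without adjustment picked 1 member, *SPNS3*, with GSK343.

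Set directly against GSK343, HKMTI-1-005 gave *SPNS3* levels lower by 0.70 (95% interval −1.14 to −0.27, SE 0.214), with no overlap between the arrays. This difference missed the threshold in the fit to all arrays (unadjusted p = 0.00253, adjusted p = 0.225, limma) and passed it in a fit to the inhibitor experiment alone (adjusted p = 0.00792). The doses differed (2.5 and 10 µM). Calls reached 0.394% of the 7367 genes in this comparison.

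With ATRA present the inhibitors again gave no call among the members. *SPNS3* was higher by 0.35 with GSK343 (−0.09 to 0.79, adjusted p = 1.00, limma) and by 0.41 with HKMTI-1-005 (−0.03 to 0.84, adjusted p = 0.497) than with ATRA alone. The arrays with ATRA alone had also served to select *SPNS3*, so that its differences from them are not independent of that selection. Set against each other, the 2 inhibitors differed by 0.06 (−0.38 to 0.49) in *SPNS3*. *SPNS1* was at 8.87, 8.61 and 8.52 with HKMTI-1-005 and ATRA, its highest group, against 8.38, 8.09 and 8.31 with GSK343 and ATRA. That difference of 0.40 missed the threshold (adjusted p = 0.511, limma) and passed it in the fit to the inhibitor experiment alone (adjusted p = 0.0446). The background in these comparisons was 0.0136% for GSK343, 0.76% for HKMTI-1-005 and 1.07% for the inhibitors against each other. No member had an unadjusted p under 0.05 for either inhibitor against ATRA alone, and 1, *SPNS1*, had one between the inhibitors. The methods' t-test picked *SPNS3* between the inhibitors without ATRA, *SPNS1* between them with ATRA, and both genes for HKMTI-1-005 against ATRA alone, before adjustment, and 0 members after it. The ATRA fall of *SPNS3* was smaller by 0.76 with HKMTI-1-005 than with GSK343, with an unadjusted p of 0.0172 that did not survive adjustment (adjusted p = 1.00, limma). In that test 0% of genes were called.

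In the knockdown experiment the result for *SPNS3* depended on the control. Averaged over both hairpins, *EZH2* knockdown differed from WT by 0.09 without ATRA (95% interval −0.29 to 0.47, adjusted p = 0.905, limma) and by 0.02 with ATRA (−0.35 to 0.40, adjusted p = 0.983). Against Scr it was lower by 0.62 without ATRA, with no overlap between the arrays, just short of the threshold (SE 0.185, adjusted p = 0.0517). That value was called with the replicate number as a block (adjusted p = 0.0392), with a trended and robust variance (adjusted p = 0.0485) and after quantile normalization (−0.68, adjusted p = 0.0259). It was also called without Scr replicate 3 (−0.63, adjusted p = 0.0412), without shEZH2#1 replicate 3 (−0.67, adjusted p = 0.0453) and without shEZH2#2 replicate 3 (−0.69, adjusted p = 0.045). In the other alternatives it was not called, among them a fit to the knockdown experiment alone, median centring and the array median as a covariate. Against Scr with ATRA *SPNS3* fell by 1.03 (SE 0.185, adjusted p = 0.00112), and by 1.19 without the 6 arrays of high median (adjusted p = 0.000969).

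The Scr cells themselves stood above WT in *SPNS3*. The difference was 0.71 without ATRA (SE 0.214, adjusted p = 0.0278, limma) and 1.05 with ATRA (adjusted p = 0.0125), with no overlap between the arrays in either case. The first call was lost without Scr replicate 1 (0.72, adjusted p = 0.117) or Scr replicate 2 (0.69, adjusted p = 0.136). It was also lost without WT replicate 1 (0.49, adjusted p = 0.2) or WT replicate 2 (0.75, adjusted p = 0.0584). Without all 6 arrays of high median, which left 1 Scr array, the difference was 0.69. The second was lost without Scr+ATRA replicate 1 (0.97, adjusted p = 0.0682), Scr+ATRA replicate 2 (0.96, adjusted p = 0.0607), WT+ATRA replicate 1 (0.87, adjusted p = 0.112) or WT+ATRA replicate 2 (1.02, adjusted p = 0.0638). Without the 6 arrays it grew to 1.42 (adjusted p = 0.0024). The comparisons of Scr with knockdown and with WT share the Scr arrays, so that the lower level of *SPNS3* against Scr and its higher level in Scr against WT are not independent.

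*SPNS2* did not differ from either control by the call without ATRA (0.16 against Scr and 0.04 against WT). With ATRA it was lower by 0.57 in knockdown than in Scr cells (SE 0.157, adjusted p = 0.0351, limma), and by 0.23 than in WT cells, which was not called (adjusted p = 0.622). The call against Scr was lost in 13 of 20 alternative analyses, 7 of which each left out 1 array: shEZH2#1+ATRA replicates 2 and 3, shEZH2#2+ATRA replicates 2 and 3, or any Scr+ATRA array. The difference stayed between −0.67 and −0.51 throughout, with adjusted p-values of 0.00851 to 0.125. The ATRA fall of *SPNS2* was larger by 0.73 in knockdown than in Scr cells, but this difference of differences missed the threshold (unadjusted p = 0.00239, adjusted p = 0.323, limma). It was called without shEZH2#1 replicate 1 (−0.89, adjusted p = 0.0354), an array of high median and the lowest *SPNS2* value of its group.

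For *SPNS3* the corresponding differences of differences were −0.41 against Scr (95% interval −0.94 to 0.13, adjusted p = 0.739, limma) and −0.07 against WT (−0.60 to 0.47, adjusted p = 0.971). For *SPNS2* the difference against WT was −0.27 (adjusted p = 0.859). No member was called in either test, where the background was 0.0814% against Scr and 0.0271% against WT. At an unadjusted p under 0.05, 1 member (*SPNS2*) passed against Scr and 0 against WT. The share of all genes at that threshold was not computed.

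*SGPP1* was the only member called in knockdown against Scr cells without ATRA, and the difference was smaller without the arrays of high median. Scr cells read 6.49, 6.03 and 6.97, WT cells 7.05, 6.98 and 7.12, shEZH2#1 cells 6.97, 7.11 and 7.06, and shEZH2#2 cells 7.40, 6.73 and 7.08. Scr replicates 1 and 2, which are arrays of high median, were below all others, and Scr replicate 3 lay among the knockdown arrays. Knockdown was higher than Scr by 0.56 (SE 0.149, adjusted p = 0.029, limma), and Scr was lower than WT by 0.55 (SE 0.172, adjusted p = 0.0331). Without the 6 arrays, which left Scr replicate 3 alone in its group, the differences were 0.19 and −0.08. Without Scr replicate 2 alone they were 0.32 (adjusted p = 0.467) and −0.32 (adjusted p = 0.346), and without Scr replicate 1 alone 0.56 (adjusted p = 0.144) and −0.55 (adjusted p = 0.135). The first call was also lost without shEZH2#1 replicate 2 (adjusted p = 0.0531), shEZH2#2 replicate 1 (0.48, adjusted p = 0.0986) or shEZH2#2 replicate 3 (adjusted p = 0.0517), and the second without WT replicate 1 (adjusted p = 0.101), 2 (adjusted p = 0.0644) or 3 (adjusted p = 0.082).

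*SGPL1*, which was not called, read 7.52, 7.74 and 8.43 in Scr and 8.53, 8.55 and 8.47 in WT cells (Scr minus WT −0.62, adjusted p = 0.0707, limma). Scr replicates 1 and 2 lay below all WT arrays. Without Scr replicate 3 *SGPL1* was called lower in Scr than in WT (−0.89, adjusted p = 0.00558) and higher in knockdown than in Scr cells (0.65, adjusted p = 0.0317). It was also called lower in Scr than in WT after centring on the array medians (−0.78, adjusted p = 0.036). Without the 6 arrays of high median, which left Scr replicate 3 alone in its group, the difference of Scr from WT was −0.09 and that of knockdown from Scr 0.07. With the array median as a covariate these were −0.04 (adjusted p = 0.967) and 0.03 (adjusted p = 0.962) for *SGPL1*, and −0.19 (adjusted p = 0.75) and 0.34 (adjusted p = 0.205) for *SGPP1*.

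Calls in the knockdown comparisons were read against a wide background. Of the 7367 genes, 6.12% were called in knockdown against Scr without ATRA and 5.38% with it, 0.407% and 3.28% against WT, and 21.6% and 0.991% in Scr against WT. Among the 5 members that could be called, 1 was called in knockdown against Scr without ATRA (*SGPP1*), 2 with ATRA (*SPNS3* and *SPNS2*), and 0 against WT in both. Scr against WT gave 2 without ATRA (*SPNS3* and *SGPP1*) and 1 with ATRA (*SPNS3*). In knockdown against WT no member had an unadjusted p under 0.05 by limma.

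Of the wider sphingolipid pathway, 62 genes were listed in 5 groups, 55 were measured and 36 could be called. Over the knockdown experiment 9 of the 36 rose with ATRA and 2 fell, where the background over all genes was 6.22% higher and 4.03% lower. In the group of other S1P receptors, transporters and phosphatases, *ABCC1*, an ABC transporter that can also export S1P, was called and rose by 0.82 (SE 0.129, adjusted p = 1.46e-05, limma). Another S1P exporter, *MFSD2B* of red cells and platelets (mean level 4.31, difference −0.02), and the other receptors measured, *S1PR2* (5.38, 0.02) and *S1PR5* (4.79, −0.03), lay below the expression filter. The transporter *ABCA1* of the same list (5.47, −0.16) lay below it too. Among genes of sphingosine release, *ASAH1*, the acid ceramidase of the lysosome, rose by 0.69 (adjusted p = 1.96e-06). None of 11 genes of ceramide synthesis that could be called passed.

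Genes of ceramide use and complex sphingolipid turnover gave most of the calls, 7 higher and 1 lower of 13 that could be called. Their median difference was 0.25 over 16 measured genes, beside −0.01 over all genes. The largest were *PSAP*, the precursor of the saposins that present sphingolipids to lysosomal hydrolases, which rose by 1.10 (SE 0.0581, adjusted p = 1.40e-15, limma), *GLA*, the lysosomal alpha-galactosidase (0.87, adjusted p = 9.26e-05), *UGCG*, the glucosylceramide synthase (0.68, adjusted p = 0.000612), and *SGMS2*, a sphingomyelin synthase, which fell by 0.61 (adjusted p = 0.00254). In the group of receptor coupling and control, 1 of 8 was called: *CD69*, which removes S1PR1 from the surface of lymphocytes, fell by 1.03 in the average of the 4 pairs (adjusted p = 0.00018). By pair it was called with shEZH2#1 (−1.92, adjusted p = 0.00139, limma) and shEZH2#2 (−1.53, adjusted p = 0.0135), and not in Scr (−0.59, adjusted p = 0.512) or WT cells (−0.08, adjusted p = 0.972). In the inhibitor experiment *CD69* was not lower with ATRA, with differences of 0.26 with GSK343 and 0.05 with HKMTI-1-005 that were not called (adjusted p = 0.804 and 0.991).

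**Figure D4:**
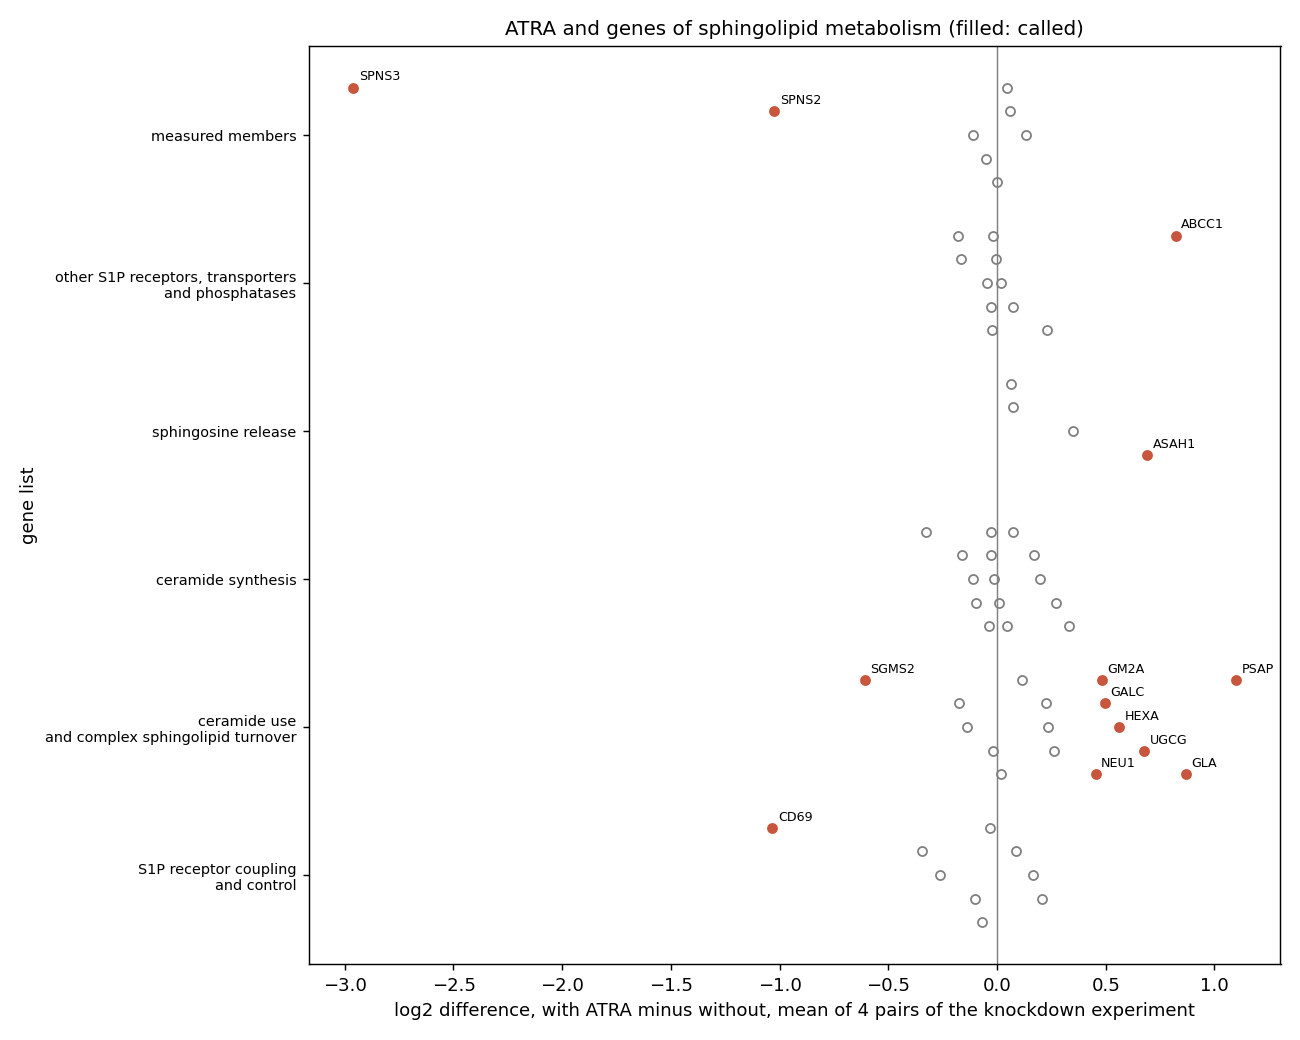
Log2 difference between cells with and without ATRA, averaged over the 4 pairs of the knockdown experiment (horizontal axis), for the 8 measured members and for 55 other genes of sphingolipid metabolism and S1P signaling in 5 lists (vertical axis); each circle is a gene, filled and named where it was called. *SPNS3* at −2.96 lies farthest from 0, and 7 of the 8 called genes of ceramide use and complex sphingolipid turnover lie on the higher side.

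The pairs with an inhibitor compare 3 arrays with 3, so that their errors are larger and their counts cannot be set against those of the knockdown experiment. With GSK343, *ABCC1* (1.01, adjusted p = 0.0124, limma) and *PSAP* (0.76, adjusted p = 6.78e-05) rose with ATRA and *KDSR*, a reductase of ceramide synthesis, fell by 0.78 (adjusted p = 0.00114), against a background of 3.35% higher and 7.06% lower. With HKMTI-1-005, *ABCC1* (1.10, adjusted p = 0.0106), *PSAP* (0.96, adjusted p = 1.43e-06) and *GNAQ*, a G protein subunit (0.46, adjusted p = 0.00091), rose and *KDSR* fell by 0.63 (adjusted p = 0.0138), against 2.38% higher and 1.67% lower. Knockdown against Scr without ATRA gave 1 call of 36, *NEU1*, a lysosomal sialidase, which was higher by 0.99 (adjusted p = 0.00381).

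*SPNS3* and *SPNS2* lie next to each other on human chromosome 17, with no protein-coding gene between them in the RefSeq annotation. In the knockdown experiment neither the 3 genes before them nor the 3 after were called with ATRA. Of these, *CYB5D2* (mean level 6.80), *GGT6* (4.54) and *SMTNL2* (5.10) lay below the expression filter and could not be called. *CYB5D2* differed by 0.14, *ANKFY1* by 0.11 and *UBE2G1* by −0.19 (adjusted p = 0.0293, limma) on the side of *SPNS3*. On the side of *SPNS2*, *MYBBP1A*, whose annotated interval overlaps that of *SPNS2*, differed by −0.34 (adjusted p = 0.00187), below the fold of 1.3, *GGT6* by 0.09 and *SMTNL2* by −0.03. *UBE2G1* and *MYBBP1A* thus passed the adjusted p but not the fold, and with GSK343 *MYBBP1A* was called with ATRA (−0.56, adjusted p = 0.0233). Beside *SPNS1* on chromosome 16, *RABEP2*, *NFATC2IP* and *LAT* differed by −0.06, −0.07 and −0.04 and were not called. *RABEP2* (mean level 4.86) and *LAT* (5.27) lay below the expression filter and could not be called. The other neighbours were not analysed here.

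Among the 7366 other genes in the top 40%, those whose 14 group means followed *SPNS3* most closely were *SLC19A1*, the reduced folate carrier (Pearson r = 0.97), *BCL2*, an inhibitor of apoptosis (0.97), *ZBED4* (0.97), *NLRC5*, a regulator of MHC class I genes (0.96), and *DUSP3*, a phosphatase (0.96). *SPNS2* came in place 6 with r = 0.96. Over the 7 groups without ATRA alone, *SPNS3* and *SPNS2* had r = 0.08, so that the likeness was not seen among those groups. No correlation was computed over the groups with ATRA alone. Among them, Scr+ATRA had the highest mean for both genes. The most opposite genes were *ABCC1* (−0.98), the chemokine receptor *CCR1* (−0.98) and *CYBB*, a subunit of the phagocyte oxidase (−0.98).

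*ABCC1* ran from 7.93 to 8.86 without and from 8.65 to 9.81 with ATRA. The genes most like *SPNS2* were *FOCAD* (r = 0.96), *ETV4*, an ETS factor (0.96), *CLASP2* (0.96), *SPNS3* (0.96) and *BCL2* (0.95), and the most opposite were *PRKCB*, a protein kinase C (−0.97), *VOPP1* (−0.97) and *ASRGL1* (−0.96). These correlations compare genes read on the same arrays, over 14 group means that share the ATRA split, and carry no test.

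**Figure D5:**
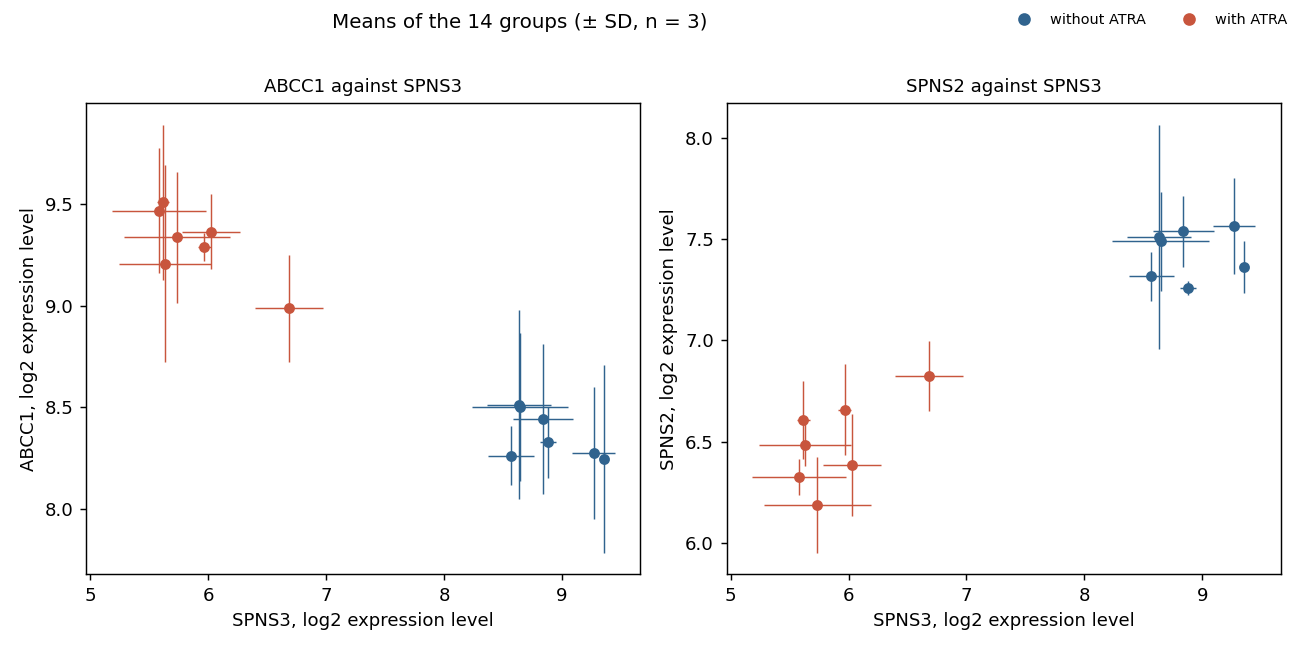
Means of the 14 groups for *ABCC1* (left) and *SPNS2* (right) on the vertical axis against *SPNS3* on the horizontal axis, in log2 expression level, without (blue) and with ATRA (red); lines are ± SD of 3 arrays. The groups form 2 clusters split by ATRA in both panels, with Scr+ATRA, at an *SPNS3* mean of 6.68, nearest to the groups without ATRA.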

How the data were processed

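The log2 values were deposited by the authors after GC-RMA and a correction for batch and date in Partek Genomics Suite. Its version and the batches were not given in the sources used here. That the scale is log2 was inferred from the values (3.18 to 14.5, median 5.40). No batch term could be fitted, and what that correction removed could not be examined. Of 33297 probe sets, 19460 carried 1 symbol, 1754 several and 12083 none, and the probe set of highest mean over the 42 arrays stood for each of 18417 genes. Group means were fitted with limma 3.58.1 in R 4.3.3 (28 residual and 3.37 prior degrees of freedom), in 22 tested comparisons. The expression filter and fold come from the study's methods. The script was tested on simulated data. The members, gene lists and tests were chosen with earlier results of these data known. Named genes were all members, called pathway genes (the 4 largest where over 5 of a list were called), 3 neighbours on each side, and the 5 most alike and 3 most opposite genes. Gene order came from the RefSeq table of the GRCh38.p14 assembly. Arrays carry no read depth, and their number limits the precision. No 2 arrays held identical values. *SPHK2* and 7 listed pathway genes were not analysed here.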

Additional observations from a re-analysis of the deposited data

How the results depend on the processing

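The falls of *SPNS3* and *SPNS2* with ATRA over the knockdown experiment kept their call in all 35 alternatives (−3.03 to −2.90 and −1.12 to −0.98), and no called value changed sign. Among the alternatives, averaging probe sets left the members' values unchanged, since each had 1 probe set. Dropping the expression filter could not remove a call. Calls in single ATRA pairs were lost under the methods' t-test, which the study does not name for its arrays. It called 0 members after adjustment in WT, Scr, shEZH2#1, shEZH2#2, GSK343 and HKMTI-1-005 pairs and in Scr against WT without and with ATRA. Before adjustment it picked *SPNS3* and *SPNS2* in all 6 pairs. With only the groups compared in the fit, shEZH2#1 kept 1 call, and knockdown against Scr and Scr against WT 0, each without and with ATRA. One fit per experiment gave 1 member for HKMTI-1-005 against GSK343 without and with ATRA, 0 and 1 for knockdown against Scr, and 0 for Scr against WT in both. A fold of 1.5 gave 0 and 1 for knockdown against Scr and 1 for Scr against WT without ATRA. The array median as a covariate gave 2 in the Scr pair. That covariate gave 0 for knockdown against Scr and for Scr against WT without ATRA. Leaving out the 6 arrays of high median left 1 Scr array without ATRA, so that no count is given for these comparisons. Knockdown against Scr gave 2 without ATRA with a trended and robust variance, 2 and 1 after quantile normalization, and 1 with ATRA after median centring. Causes of these changes were not tested. The replicate block gave 2 and 1 there and changed no other count by over 1.5 times. Deviations of same-numbered arrays from their group means had a median correlation of 0.0156 (−0.58 to 0.59) in the inhibitor experiment. In the knockdown experiment it was −0.0164 (−0.73 to 0.66). The numbers were not taken as pairs. Batch and date had been corrected for beforehand, so that these values cannot show whether the arrays were paired. Leaving out 1 array gave 0 to 3 members for knockdown against Scr, 1 to 2 with ATRA, 0 to 2 for Scr against WT, 0 to 1 with ATRA, and 0 to 1 for the ATRA effect in knockdown minus Scr. Quantile normalization moved group means of the members by at most 0.1 and centring by at most 0.09.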
